A study of Caenorhabditis elegans with 8 samples.

Results

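The 63 genes described here were the expressed protein-coding genes of the nuclear chromosomes whose mean level was at least 2 times higher in mtch-1(RNAi) worms than in empty vector (EV) worms. They were picked out of 20871 genes in the table by their levels in the same samples described below. A gene was kept when its mean over the EV samples was at least 20 normalised read counts, when its mean over the mtch-1(RNAi) samples was at least 2 times that mean, and when its lowest mtch-1(RNAi) value lay above its highest EV value. A normalised read count is the number of reads on a gene divided by the size factor of its sample. The mean level in EV was 20 or more for 11298 protein-coding nuclear genes, of which 95 (0.841%) had a ratio of at least 2. The levels of the groups overlapped in 20 of these 95, which left 75 genes. A list of 13 genes from the pud, heat shock, cytochrome P450 and other groups was left out by name, and 12 of those had met the value criteria, so that 63 remained.

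The animals were Caenorhabditis elegans collected as whole adults on day 3 of adulthood, and the labels name no strain. Worms of the mtch-1(RNAi) group ate HT115 Escherichia coli that made double-stranded RNA against mtch-1, from hatching until collection. Worms of the EV group ate HT115 carrying the L4440 vector with no insert over the same time. Each group had 4 samples, and both were grown on plates with ampicillin and IPTG. Feeding RNAi lowers the target in most tissues but reaches neurons poorly in worms with no sensitising mutation. RNA came from whole animals, so fewer cells of a type and less RNA per cell cannot be told apart. Nothing in the labels tells whether replicates came from separate plates of worms, so errors and p-values measure only how far these samples differ among themselves.

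mtch-1 encodes a member of the mitochondrial carrier family that sits in the outer mitochondrial membrane. Its human relative MTCH2 inserts helical proteins into that membrane. Worms meet mitochondrial stress with several transcriptional programmes, among them a mitochondrial unfolded protein response driven by atfs-1, cytosolic chaperone induction, and changes in detoxification and amino acid metabolism. The 63 genes were not chosen for any of these roles, and they range over metabolic enzymes, signalling proteins, transcription factors, cuticle and hatching proteins, a sperm channel, and many genes known only by a sequence name.

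Libraries held between 20626184 and 22748868 assigned reads in mtch-1(RNAi) samples and between 18710833 and 23608608 in EV samples. The targeted gene mtch-1 (F43E2.7, II:7372615-7374166, minus strand, WBcel235, Ensembl annotation) had 1048, 1218, 716 and 950.0 normalised counts in mtch-1(RNAi), against 5528, 5998, 5762 and 6068 in EV. The groups were far apart, and the fitted log2 fold change was -2.56 (SE 0.12, edgeR quasi-likelihood test with Benjamini-Hochberg adjustment, adjusted p = 8.62e-08). The same test over 13252 genes called 1325 genes higher (10%) and 1728 genes lower (13%) in mtch-1(RNAi) at an adjusted p under 0.05. All 63 selected genes were among those called higher, but the rule used this same contrast, so that count carries no information about them. The lowest mtch-1(RNAi) value exceeded the highest EV value in 1259 of the 11298 expressed genes (11.1%). The statements on selected genes below are therefore descriptions of their levels, with no test.

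The selected genes were mostly weakly expressed, but the rule used these same EV means. In EV, the SD of a gene's samples was a median 21.9% of its mean for the selected genes and 8.53% for the expressed genes. Genes that vary more can reach a ratio of 2 more easily, so the level was not free of the rule. The EV means of the selected genes ran from 20.2 to 2367 normalised counts, with a median of 50.8. The median over all 11298 expressed genes was 544. An EV mean between 20 and 50 was found in 31 of the 63 (49.2%), against 14.9% of the expressed genes. Only 4 of them (6.35%) had an EV mean of 500 or more, against 51.3% of the expressed genes. On a per-length scale, their median was 5.09 FPKM in mtch-1(RNAi) and 2.29 FPKM in EV. The ratio of group means ran from 2.00 to 5.22 with a median of 2.21. It was at least 3 in 10 genes, between 2.5 and 3 in 10, and under 2.5 in 43. The lowest mtch-1(RNAi) value stood between 1.00 and 3.12 times the highest EV value, with a median of 1.41, and was at least 2 times that value in 8 genes. In 5 genes it was less than 1.1 times that value, so those groups only just failed to overlap.

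**Figure D1:**
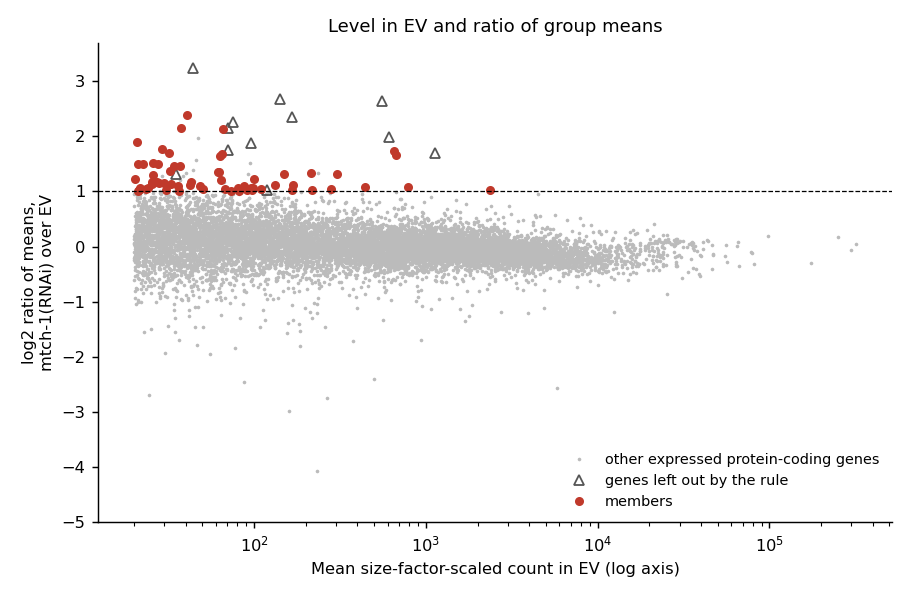
Each point is 1 gene, with its mean EV level in normalised counts on a log10 axis and the log2 ratio of its mtch-1(RNAi) mean to its EV mean on the other axis; the selected genes (members) are drawn as filled circles over the other expressed protein-coding nuclear genes, and triangles are the genes left out by name. The selected genes lie at or above a log2 ratio of 1 and mostly at the low end of the level axis, where the median of the expressed genes is 544.

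Enzymes of amino acid, lipid and small-molecule metabolism formed one group among the 31 selected genes with an assigned symbol. asns-2 (M02D8.4, X:8748828-8750969, minus strand) encodes an asparagine synthetase, and its mammalian relative is a well-known target of ATF4 when amino acids run short or mitochondria are stressed. Its normalised counts were 3447, 1863, 1710 and 1653 in mtch-1(RNAi), against 950.0, 532, 611 and 511 in EV. Replicate 1 was the highest sample of both groups, and the lowest mtch-1(RNAi) sample was still 1.74 times the highest EV sample. The means were 2168 ± 857 in mtch-1(RNAi) and 651 ± 204 in EV (SD, n = 4 each), a ratio of 3.33 and a log2 fold change of 1.74 (SE 0.25). Its only tested relative, asns-1, was low, with 17.5, 8.37, 31.2 and 32.5 in mtch-1(RNAi) and 18.6, 27.7, 14.5 and 17.5 in EV (edgeR adjusted p = 0.763). The worm factor atf-4 also did not pass the test, with a log2 fold change of -0.04 (SE 0.11, edgeR adjusted p = 0.838). That value is the level of the atf-4 transcript only, and any part of atf-4 in the asns-2 level was not tested.

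gba-2 (C33C12.8, II:2182503-2186433, minus strand) encodes a glucosylceramidase, which splits glucose from the sphingolipid glucosylceramide. It had 134, 147, 273 and 119.96 normalised counts in mtch-1(RNAi), against 25.9, 32.3, 68.3 and 24.9 in EV. Replicate 3 stood above the others in both groups, and the ratio of means was 4.45. None of the 3 tested relatives passed the test upward, and gba-4 fell, with a log2 fold change of -0.91 (SE 0.13, edgeR adjusted p = 0.000574). The same replicate was the highest in both groups for dlhd-1 (T23F4.3), named for a dienelactone hydrolase domain, and for dhs-26 (ZK816.5), a short-chain dehydrogenase. dlhd-1 had 65.5, 40.9, 101 and 47.2 in mtch-1(RNAi), against 23.8, 12.7, 38.1 and 15.7 in EV, a ratio of 2.83. dhs-26 was one of the more abundant selected genes, with 1332, 1476, 2130 and 1700 in mtch-1(RNAi), against 546, 625, 1091 and 868 in EV, a ratio of 2.12. The lowest mtch-1(RNAi) sample was 1.08 times EV replicate 3 in dlhd-1 and 1.22 times EV replicate 3 in dhs-26.

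Another short-chain dehydrogenase, dhs-23 (R08H2.1), had 44.5, 44.6, 64.3 and 39.3 in mtch-1(RNAi), against 14.5, 16.15, 24.6 and 38.8 in EV. Its groups were separated by less than 1 count, between mtch-1(RNAi) replicate 4 and EV replicate 4. Of the 27 other tested dhs genes, 3 rose (11.1%) and 2 fell (7.41%), against 10% and 13% over all tested genes. dhs-2 rose with a log2 fold change of 0.84 (SE 0.17, edgeR adjusted p = 0.00343), and dhs-14 fell with -0.30 (SE 0.09, edgeR adjusted p = 0.0328). dhs-6 and dhs-14, the 2 that fell, both lost their calls without mtch-1(RNAi) replicate 2 or 4 and without EV replicate 3 or 4, so that 0 dhs genes fell. Of the 3 that rose, dhs-20 lost its call without mtch-1(RNAi) replicate 3 or 4 and without EV replicate 1, 2 or 4, with edgeR adjusted p of 0.0743 to 0.107. cest-1.1 (T02B5.1), a carboxylesterase, had 52.4, 29.8, 68.2 and 88.5 in mtch-1(RNAi), against 12.4, 21.9, 29.1 and 21.2 in EV. The lowest mtch-1(RNAi) sample was only 1.02 times the highest EV sample. Among the 30 other tested cest genes, 5 rose (16.7%) and 1 fell (3.33%), and the neighbouring paralogue cest-1.2 was 1 of the 5 (log2 fold change 0.81, SE 0.21, edgeR adjusted p = 0.0164). Leaving out mtch-1(RNAi) replicate 4 gave cest-1.2 an adjusted p of 0.0501. The count of cest genes that fell was 0 without EV replicate 1 and 2 without EV replicate 3, and with the replicate number as a block 8 rose and 2 fell. Closely related copies of this family can share reads, so the split between cest-1.1 and cest-1.2 is uncertain.

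cpt-4 (K11D12.4) belongs to the carnitine palmitoyltransferase family, whose best known members load fatty acids onto carnitine for mitochondrial import. It had 155, 82.8, 49.7 and 111 in mtch-1(RNAi), against 49.7, 16.15, 21.3 and 29.5 in EV. The ratio of means was 3.41, yet the groups touched, since mtch-1(RNAi) replicate 3 and EV replicate 1 had nearly the same level. Of the 5 other tested cpt genes, cpt-5 rose (log2 fold change 0.88, SE 0.21, edgeR adjusted p = 0.0105) and none fell. hrg-9 (R186.1) is a heme-responsive gene of the TANGO2 family, which takes part in heme trafficking. Its levels were tight and well apart, with 98.7, 104, 91.6 and 117 in mtch-1(RNAi), against 42.4, 32.3, 41.4 and 32.3 in EV, a ratio of 2.77. Among the 7 other tested hrg genes, hrg-1, a heme transporter, rose slightly (log2 fold change 0.26, SE 0.07, edgeR adjusted p = 0.0195), but leaving out mtch-1(RNAi) replicate 1, mtch-1(RNAi) replicate 2 or EV replicate 3 gave adjusted p of 0.0551, 0.0605 and 0.0539. lact-5 (C33F10.7), with a beta-lactamase domain, had 101, 81.9, 75.1 and 109 in mtch-1(RNAi), against 38.3, 36.9, 44.8 and 48.9 in EV. txt-4 (K03H6.2), which carries a lipase domain in the deposited annotation, had 169, 224, 154 and 201 in mtch-1(RNAi), against 68.3, 128, 80.6 and 88.6 in EV. The lowest mtch-1(RNAi) sample of txt-4 was 1.20 times EV replicate 2.

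**Figure D2:**
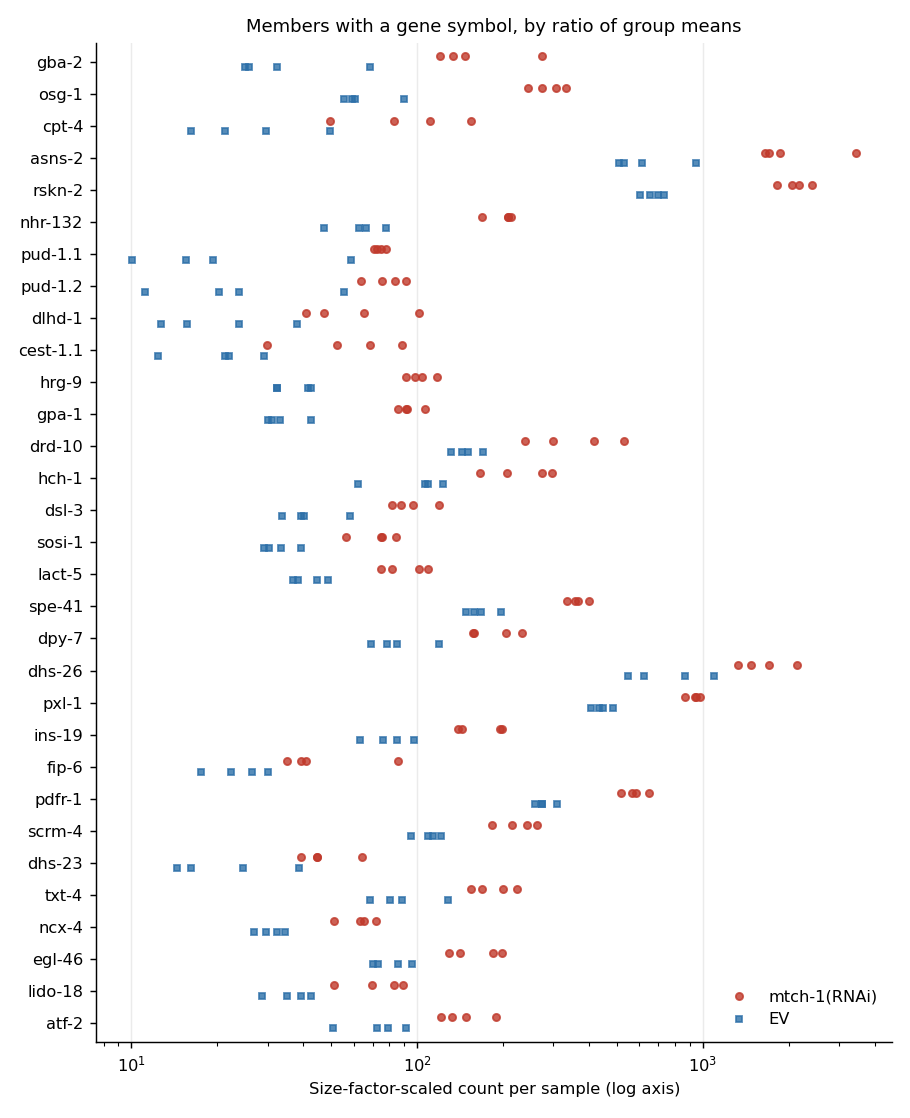
Normalised counts (log10 axis) of the 31 selected genes with an assigned gene symbol, 1 point per sample, with mtch-1(RNAi) as circles above EV as squares and the genes ordered by ratio of means. In every gene the 4 mtch-1(RNAi) points lie right of the 4 EV points, as the selection rule required; the space between the groups is widest in osg-1 and rskn-2 and vanishes in cpt-4.

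Genes of intracellular signalling and the cytoskeleton gave some of the tightest separations. rskn-2 (C54G4.1, I:8014443-8019592, plus strand) encodes a kinase of the ribosomal S6 kinase family, which acts downstream of MAP kinases. Its normalised counts were 2173, 2047, 1820 and 2421 in mtch-1(RNAi), against 603, 700.2, 731 and 654 in EV. The samples of each group lay close together, the lowest mtch-1(RNAi) sample was 2.49 times the highest EV sample, and the log2 fold change was 1.66 (SE 0.09). The other gene of that name, rskn-1, fell (log2 fold change -0.36, SE 0.06, edgeR adjusted p = 0.000884). osg-1 (R02F2.2, III:5487642-5498952, plus strand) had 334, 244, 273 and 307 in mtch-1(RNAi), against 90.03, 55.4, 60.4 and 59.1 in EV, a ratio of 4.37. EV replicate 1 stood above the rest of its group and still reached well under the lowest mtch-1(RNAi) sample.

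pxl-1 (C28H8.6) encodes paxillin, an adaptor of muscle attachment sites. It had 979.8, 945, 865 and 943 in mtch-1(RNAi), against 484, 448, 405 and 434 in EV, and its log2 fold change of 1.08 had one of the smallest errors of the set (SE 0.07). The summed level of 10 muscle markers was 17392 to 26042 in mtch-1(RNAi) and 16886 to 21024 in EV, ranges that overlap. None of those 10 markers passed edgeR's adjusted threshold, 3 were higher at an unadjusted p under 0.05, and 7 were called higher with the replicate number as a block. A fit without mtch-1(RNAi) replicate 3 called 5 muscle markers higher. Without EV replicate 2 it called 1, and DESeq2 and limma-voom called 0. The part of muscle content in the pxl-1 level was not tested.

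gpa-1 (T19C4.6, V:11174567-11176685, minus strand) encodes a G protein alpha subunit of chemosensory neurons. It had 91.7, 107, 92.6 and 85.5 in mtch-1(RNAi), against 30.01, 31.1, 42.5 and 33.2 in EV, a ratio of 2.75. Of the 12 other tested gpa genes, edgeR called 0 at an adjusted p under 0.05, and at an unadjusted p under 0.05 1 was higher and 1 lower. pdfr-1 (C13B9.4, III:6634082-6652083, minus strand) encodes the receptor for PDF neuropeptides, which tune locomotion and arousal. It had 651, 564, 519.6 and 582 in mtch-1(RNAi), against 274, 275, 309 and 258 in EV, a ratio of 2.08. Its groups were well apart, with a lowest mtch-1(RNAi) sample 1.68 times the highest EV sample. ins-19 (T10D4.13) encodes an insulin-like peptide. It had 199, 139.5, 143 and 195 in mtch-1(RNAi), against 63.1, 85.4, 76.1 and 97.8 in EV. Of the 16 other tested ins genes, edgeR called 0 at an adjusted p under 0.05 and 2 were lower at an unadjusted p under 0.05. With the replicate number as a block, without mtch-1(RNAi) replicate 4 or without EV replicate 1, 1 ins gene was called lower. dsl-3 (Y41D4B.10), with the DSL domain of Notch ligands, had 96.9, 81.9, 87.7 and 118.98 in mtch-1(RNAi), against 39.3, 40.4, 33.6 and 58.1 in EV.

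The summed level of 12 neuron markers was 7182 to 7967 in mtch-1(RNAi) and 7458 to 7983 in EV, and the ranges overlapped. edgeR called 0 of the 12 at an adjusted p under 0.05 and 1 at an unadjusted p under 0.05, DESeq2 and limma-voom also called 0, and 1 was called higher with the replicate number as a block or without mtch-1(RNAi) replicate 3. Of 107 other neuropeptide and insulin-like peptide genes tested, 2 rose (1.87%) and 1 fell (0.935%), with a median log2 fold change of 0.05 beside 0.01 over all tested genes. nlp-39 rose (log2 fold change 1.34, SE 0.31, edgeR adjusted p = 0.0085). nlp-40 fell slightly (log2 fold change -0.17, SE 0.04, edgeR adjusted p = 0.0143), but leaving out mtch-1(RNAi) replicate 4 or EV replicate 2 gave adjusted p of 0.0593 and 0.0516. With the replicate number as a block, 6 of the 107 were called higher and 2 lower. The 2 genes called higher became 1 without mtch-1(RNAi) replicate 2, 3 or 4, without EV replicate 1 or without EV replicate 4, as nlp-59 lost its call, and became 3 without EV replicate 3. The 1 gene called lower became 0 without EV replicate 2 and 2 without EV replicate 1.

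Transport proteins formed a small group. ncx-4 (F35C12.2) encodes an exchanger of sodium for calcium. It had 71.6, 51.2, 65.3 and 62.9 in mtch-1(RNAi), against 26.9, 34.6, 32.5 and 29.5 in EV. Its relative ncx-9 fell (log2 fold change -1.66, SE 0.46, edgeR adjusted p = 0.021), but leaving out mtch-1(RNAi) replicate 4 or EV replicate 4 gave adjusted p of 0.0625 and 0.0582. scrm-4 (F11A6.2) encodes a member of the scramblase family, which moves phospholipids between membrane leaflets. It had 262, 243, 182 and 214 in mtch-1(RNAi), against 114, 109.6, 121 and 95.0 in EV, while the more abundant scrm-1 differed by less than its error (log2 fold change 0.04, SE 0.09, edgeR adjusted p = 0.783).

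The selected genes held 3 transcription factors with assigned names. nhr-132 (R11G11.1, V:534451-536167, plus strand) encodes a nuclear hormone receptor. It had 213, 208, 169 and 207 in mtch-1(RNAi), against 77.6, 47.3, 62.7 and 66.4 in EV, a ratio of 3.14. Replicate 3 was the low sample of the mtch-1(RNAi) group and was still 2.17 times the highest EV sample. atf-2 (K08F8.2), a bZIP factor, had 189, 132, 121 and 148 in mtch-1(RNAi), against 72.4, 50.8, 91.8 and 79.4 in EV. egl-46 (K11G9.4), a zinc finger factor of neuron development, had 199, 141, 129.6 and 185 in mtch-1(RNAi), against 96.2, 70.4, 72.7 and 85.8 in EV. Both lay at the lower edge of the selection, with ratios of 2.00 and 2.01. Of the 4 other tested atf genes edgeR called 0, also at an unadjusted p under 0.05, and 1 was called higher without EV replicate 4.

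Of 169 other nuclear hormone receptor genes tested, 14 rose (8.28%) and 6 fell (3.55%), against 10% and 13% over all tested genes. With the replicate number as a block 27 rose, but that fit also called more genes in each direction over the whole table. Without mtch-1(RNAi) replicate 1 only 7 rose and 3 fell, and without EV replicate 3 or EV replicate 4 only 9 rose. Without EV replicate 2 or 3 the count that fell was 3, and without EV replicate 4 it was 2. nhr-104 rose (log2 fold change 0.78, SE 0.14, edgeR adjusted p = 0.00165), as did nhr-25 (0.86, SE 0.19, edgeR adjusted p = 0.00643), a receptor that drives molting. nhr-71 fell (-0.38, SE 0.06, edgeR adjusted p = 0.00128). Of 110 cytochrome P450 and UDP-glycosyltransferase genes, which modify foreign and internal small molecules, 22 rose (20.0%) and 4 fell (3.64%), and with the replicate number as a block 35 rose and 9 fell. This list includes cyp-14A4 and cyp-36A1, which had met the value criteria and were left out by name.

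Cuticle and hatching genes came next. dpy-7 (F46C8.6, X:7536460-7537794, minus strand) encodes a collagen of the annular furrows of the cuticle, made by the hypodermis at each molt. Its normalised counts were 233, 157, 159 and 205 in mtch-1(RNAi), against 78.6, 69.2, 85.1 and 119.03 in EV, with means of 188 ± 37.0 in mtch-1(RNAi) and 88.0 ± 21.7 in EV (SD, n = 4 each). hch-1 (F40E10.1, X:14696412-14699977, minus strand) encodes an astacin metalloprotease that digests the eggshell at hatching. It had 274, 206, 167 and 298 in mtch-1(RNAi), against 109.7, 62.3, 106 and 124 in EV, a ratio of 2.35. For both genes replicates 1 and 4 were the higher samples of the mtch-1(RNAi) group and replicate 4 was the highest of the EV group.

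Genes sharing the dpy name, which stands for a short body and not for a single protein family, moved in both directions. Of 23 other tested dpy genes, 5 rose (21.7%) and 3 fell (13.04%), against 10% and 13% over all tested genes, with a median log2 fold change of 0.06. Only 3 rose without mtch-1(RNAi) replicate 1 or 3. The collagen dpy-14 rose with a log2 fold change of 0.88 (SE 0.12, edgeR adjusted p = 0.000385), dpy-17 with 0.73 (SE 0.11, edgeR adjusted p = 0.000794) and dpy-3 with 0.92 (SE 0.22, edgeR adjusted p = 0.00941). The genes that fell were dpy-28 (log2 fold change -0.30, SE 0.05, edgeR adjusted p = 0.00212), dpy-23 (-0.29, SE 0.06, edgeR adjusted p = 0.00389) and dpy-19 (-0.44, SE 0.10, edgeR adjusted p = 0.00669). Among the 10 larval and molting markers, 9 were tested, 6 rose (66.7%) and none fell. mlt-11, a protease inhibitor of molting, rose by 0.83 on the log2 scale (SE 0.13, edgeR adjusted p = 0.00096). noah-1, an apical matrix protein, had 865, 669, 686 and 1035 in mtch-1(RNAi), against 468, 421, 414 and 565 in EV, with replicates 1 and 4 again the highest in both groups. The summed level of these markers was 3084, 2437, 2342 and 3284 in mtch-1(RNAi) and 1656 to 1975 in EV, and no marker was at 0 in every sample. The exact 2-sided permutation test of the sum gave p = 0.0286, the smallest it can give with 4 against 4, and 0.0686 after Benjamini-Hochberg adjustment over 12 cell types. The number of these markers called higher dropped to 3 without mtch-1(RNAi) replicate 1, without mtch-1(RNAi) replicate 4, without EV replicate 2 or without EV replicate 3. The part of larval and molting transcripts in the levels of dpy-7 and hch-1 was not tested.

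**Figure D3:**
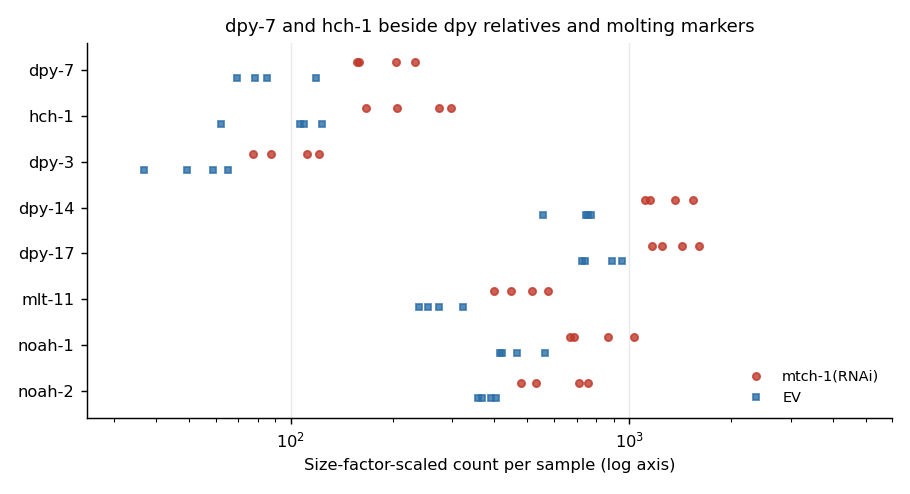
Normalised counts (log10 axis) of dpy-7 and hch-1 beside other cuticle and molting genes, 1 point per sample, mtch-1(RNAi) above EV for each gene. The 4 mtch-1(RNAi) points of dpy-7 lie between 157 and 233, right of the EV points between 69.2 and 119.03.

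Markers of the hypodermis in general were also read. Their summed level, over 9 genes other than dpy-7, was 25237 to 33320 in mtch-1(RNAi) and 26080 to 34917 in EV. Of the 7 tested, edgeR called 0 at an adjusted p under 0.05 and 1 at an unadjusted p under 0.05, DESeq2 and limma-voom called 0, and the fit with the replicate number as a block called 2 higher and 1 lower. Without mtch-1(RNAi) replicate 2 it called 1 higher. The summed level of 14 embryo markers was lower in mtch-1(RNAi), at 4256 to 4754 against 4779 to 5211 in EV. Most of that sum was pal-1 alone, with means of 3803 in mtch-1(RNAi) and 4367 in EV. The lower sum therefore describes pal-1 more than the other embryo markers. Of 12 germline and oocyte markers, 9 fell (75.0%) and none rose, beside 13% lower and 10% higher over all tested genes. Their summed level was 204871 to 221768 in mtch-1(RNAi) and 247331 to 265360 in EV.

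spe-41 (K01A11.4, III:3439011-3443060, minus strand) encodes a TRP calcium channel that sperm need for fertilisation. It had 366, 399, 334 and 357 normalised counts in mtch-1(RNAi), against 168, 196, 149 and 158 in EV, with a ratio of 2.17 and a log2 fold change of 1.13 (SE 0.11). The groups were tight and clearly apart. Sperm markers were close to absent from these day 3 adults, with a summed level of 16.7 to 36.1 in mtch-1(RNAi) and 17.5 to 30.01 in EV over 7 of the 14 listed genes. Only msp-31 of that list had enough reads for the fit, and it did not pass the test (log2 fold change 0.06, SE 0.41, edgeR adjusted p = 0.937). Of the 9 other tested spe genes, edgeR called 0 at an adjusted p under 0.05 and 1 was higher at an unadjusted p under 0.05, and 1 was called higher with the replicate number as a block. The most abundant of them, spe-39 and spe-48, had log2 fold changes of 0.06 (SE 0.05) and 0.05 (SE 0.06). In the Ensembl annotation K01A11.3 lies 2805 bases from spe-41 on the same strand and was the only other selected gene next to a selected gene. It had 59.4, 69.8, 55.6 and 83.6 in mtch-1(RNAi), against 30.01, 35.8, 16.8 and 37.8 in EV.

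Several other genes with a symbol carry names for the condition under which they were found. pud-1.1 (F15E11.13, V:2330429-2330930, plus strand) and pud-1.2 (Y19D10B.7, V:2322038-2322566, minus strand) are near-identical copies named for proteins that go up in daf-2 insulin receptor mutants. pud-1.1 had 72.5, 70.7, 75.1 and 77.7 in mtch-1(RNAi), against 15.5, 58.8, 10.1 and 19.4 in EV. pud-1.2 had 63.7, 75.3, 83.8 and 91.4 in mtch-1(RNAi), against 23.8, 55.4, 11.2 and 20.3 in EV. EV replicate 2 was the high sample in both, and without it the log2 fold change of pud-1.1 was 2.29 in place of 1.53. Reads from one copy can map to the other, so the division between them is uncertain. The 4 other tested pud genes all rose, with EV replicate 2 again the high sample in pud-3, pud-4 and pud-2.1. Only 2 of these 4 were called without mtch-1(RNAi) replicate 2 or 4 and without EV replicate 1, 3 or 4. The call of pud-2.1 was lost without mtch-1(RNAi) replicate 2, 3 or 4 and without EV replicate 1, 3 or 4, with edgeR adjusted p of 0.0519 to 0.089. pud-3 and pud-4 had met the value criteria and were left out by name, so their rise followed from the rule. Both were far more abundant, with means of 3446 ± 445 in mtch-1(RNAi) and 554 ± 243 in EV for pud-3 (SD, n = 4 each).

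drd-10 (C33G8.3), from a group of genes named for dietary restriction, had 238, 418, 299 and 529 in mtch-1(RNAi), against 131, 171, 151 and 144 in EV. Its mtch-1(RNAi) samples spread widely while its EV samples did not. Of the 3 other tested drd genes, drd-5 rose with a log2 fold change of 0.80 (SE 0.15, edgeR adjusted p = 0.00258) and drd-50 with 0.50 (SE 0.12, edgeR adjusted p = 0.0111). fip-6 (F53B6.9) had 85.6, 40.9, 35.1 and 39.3 in mtch-1(RNAi), against 30.01, 26.5, 22.4 and 17.5 in EV, with replicate 1 far above the rest of its mtch-1(RNAi) group and a ratio of 2.08. lido-18 (C18H2.1) had 89.1, 69.8, 82.9 and 51.1 in mtch-1(RNAi), against 35.2, 39.2, 42.5 and 28.6 in EV. sosi-1 (C41D11.6, I:4460146-4462972, minus strand) had 75.1, 84.6, 56.5 and 75.7 in mtch-1(RNAi), against 39.3, 33.5, 29.1 and 30.4 in EV. Exons of eri-6 on the opposite strand cover 1131 bases of sosi-1, or 44.2% of its exonic length, and eri-6 averaged 417 in mtch-1(RNAi) and 405 in EV.

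The other 32 selected genes had a sequence name only. The highest ratio of the whole selection belonged to W03F9.4 (V:147526-152104, minus strand), with 288, 139.5, 177 and 241 in mtch-1(RNAi), against 39.3, 34.6, 44.8 and 43.4 in EV, a ratio of 5.22. Its lowest mtch-1(RNAi) sample was 3.12 times its highest EV sample, the widest separation of the 63. F58H7.5 (IV:919990-920808, plus strand) had 92.6, 68.8, 65.3 and 83.6 in mtch-1(RNAi), against 13.5, 32.3, 17.9 and 19.4 in EV. T16G1.7 (V:12932941-12935052, minus strand), with the domain of unknown function DUF1679 in the deposited annotation, had 56.8, 140.5, 131 and 88.5 in mtch-1(RNAi), against 33.1, 40.4, 30.2 and 24.9 in EV. The mtch-1(RNAi) samples of T16G1.7 spread more than those of F58H7.5. H11L12.1 (X:17710486-17711674, minus strand) had 217, 178, 233 and 208 in mtch-1(RNAi), against 82.8, 68.1, 63.8 and 47.1 in EV, a ratio of 3.19.

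Below a ratio of 3, M01A8.1 had 115, 107, 55.6 and 59.0 in mtch-1(RNAi), against 30.01, 34.6, 27.98 and 37.8 in EV. K07A1.13 had 166, 155, 149 and 174 in mtch-1(RNAi), against 56.9, 58.8, 77.2 and 58.1 in EV. The groups of K07A1.13 were tight and apart, while those of M01A8.1 came closer because of mtch-1(RNAi) replicates 3 and 4. F59H6.2 had 156, 178, 146 and 151 in mtch-1(RNAi), against 55.9, 54.2, 51.5 and 85.8 in EV. C50B6.7 had 455, 547, 645 and 522 in mtch-1(RNAi), against 196, 188, 276 and 202 in EV. In each of these last 2 genes 1 EV sample stood above its group, replicate 4 in F59H6.2 and replicate 3 in C50B6.7. F22E5.13 had 77.7, 71.6, 52.6 and 52.1 in mtch-1(RNAi), against 20.7, 36.9, 27.98 and 17.5 in EV.

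Among the sequence-named genes with the highest levels, F15B9.10 (V:13007121-13008925, minus strand) stood alone. It had 4776, 4781, 4890 and 4947 in mtch-1(RNAi), against 2414, 2299, 2544 and 2211 in EV, and 173 ± 3.64 FPKM in mtch-1(RNAi) and 84.6 ± 5.07 FPKM in EV (SD, n = 4 each). It was the most abundant selected gene, and its log2 fold change of 1.04 had the smallest error (SE 0.05). C32H11.4 (IV:12921288-12923292, plus strand) had 866, 667, 806 and 695 in mtch-1(RNAi), against 322, 249, 366 and 280.5 in EV. W04A8.4, with a 3'-5' exonuclease domain in the deposited annotation, had 568, 403, 341 and 460.2 in mtch-1(RNAi), against 247, 155, 215 and 250.05 in EV. F47C12.1, with Sushi domains, had 408, 269.7, 298 and 385 in mtch-1(RNAi), against 187, 135, 119.7 and 226 in EV. In W04A8.4 and F47C12.1 replicates 1 and 4 were the higher samples of both groups. M116.2 had 307, 324, 231 and 284 in mtch-1(RNAi), against 144, 126, 131 and 130.1 in EV.

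R09E10.5 had 289, 165, 142 and 227 in mtch-1(RNAi), against 115, 54.2, 82.8 and 141 in EV, and its groups were separated by a factor of only 1.01. Y65B4BL.1 had 253, 175, 162 and 196 in mtch-1(RNAi), against 106, 75.0, 86.2 and 121 in EV. In both genes replicates 1 and 4 were again the high samples of each group. Y48G1BM.6 had 224, 211, 172 and 202 in mtch-1(RNAi), against 90.03, 113, 76.1 and 105 in EV. F54F7.2 had 171, 155, 218 and 194 in mtch-1(RNAi), against 73.5, 105, 81.7 and 92.3 in EV. In these 2 genes EV replicate 2 was the highest of its group. The 13 sequence-named genes not listed had ratios between 2.02 and 2.33, with means between 42.6 and 148 in mtch-1(RNAi) and between 20.2 and 67.6 in EV. Although the deposited table gives all 63 as protein-coding, F59H6.2, F40E3.7 and M116.2 are pseudogenes in the Ensembl annotation.

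Replicates of the mtch-1(RNAi) group were uneven over the selected genes. Replicates 1 and 4 were above the mean log2 level of their group in 43 and 44 of the 63 genes, while replicates 2 and 3 were above it in 20 and 19. Over all expressed genes the shares above the mean were 48.0%, 56.7%, 54.6% and 44.99% for mtch-1(RNAi) replicates 1 to 4, so the selected genes leaned the other way. In EV the counts were 32, 26, 32 and 30 for replicates 1 to 4. Replicate 1 was the highest mtch-1(RNAi) sample in 31 of the 63 genes. The rule picked the genes by these same mtch-1(RNAi) values, so their lean towards replicates 1 and 4 was not free of it. The rule kept 50 genes without mtch-1(RNAi) replicate 1, against 91, 86 and 70 without replicates 2, 3 and 4. How much of the lean came from the rule was not tested. The summed larval and molting markers were also highest in mtch-1(RNAi) replicates 1 and 4. So were the sums of pharynx, coelomocyte and glia markers, while the other marker lists had a different order. The part of any of these transcripts in the levels of the selected genes was not tested. Paired by replicate number, the ratio was at least 2 in all 4 pairs for 17 genes, in 3 pairs for 21, in 2 pairs for 22 and in 1 pair for 3. The median ratio over the 63 genes was 2.58, 2.36, 2.01 and 2.25 for pairs 1 to 4.

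**Figure D4:**
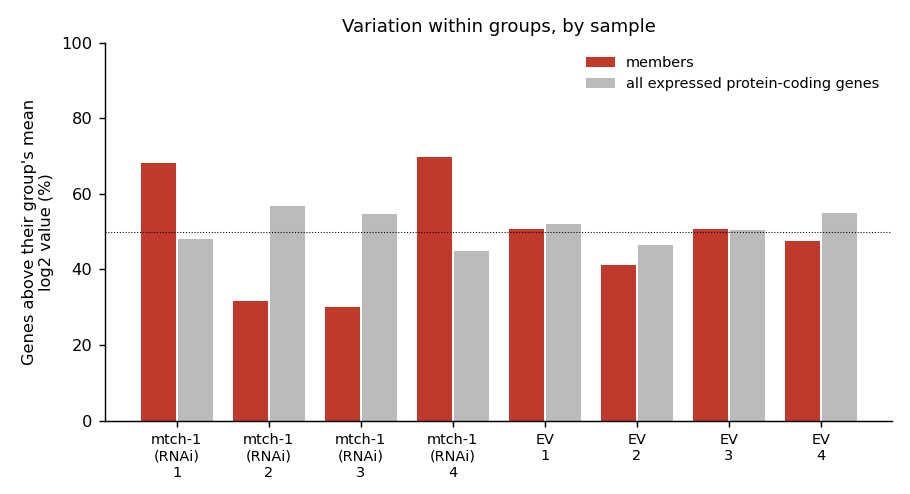
Share of genes whose log2 level lies above the mean of its group in each sample (percent), for the 63 selected genes (members) and for all expressed protein-coding nuclear genes, with mtch-1(RNAi) samples left of EV samples. The selected genes reach 68.3% and 69.8% in mtch-1(RNAi) replicates 1 and 4 and 31.7% and 30.2% in replicates 2 and 3. The rule that picked them used these same samples, so their shares are not free of it.

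The selected genes varied together only weakly once the group means were removed. Over the 1953 pairs of selected genes the median Pearson correlation of within-group deviations was 0.0714, with 55.1% of pairs above 0, against 0.00878 and 50.7% for pairs of expressed genes. The 5 highest pairs over the 8 samples were R09E10.5 with Y65B4BL.1 (0.975), R09E10.5 with W04A8.4 (0.966), cpt-4 with egl-46 (0.950), pud-1.1 with pud-1.2 (0.946), and W04A8.4 with Y65B4BL.1 (0.941). R09E10.5, Y65B4BL.1 and W04A8.4 thus formed a triplet, although they lie on chromosome IV and at opposite ends of chromosome I. These correlations are the highest of many and share the same 8 libraries, so they are given as description only. The rule used the same libraries, so the medians for selected and expressed pairs are also description only.

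The selected genes were spread over the genome. Chromosome V held 14 of them (22.2%, against 18.3% of the expressed genes), chromosome I held 13 (20.6%, against 16.9%), and II, III, IV and X held 9 each. A domain name was given in the deposited annotation for 23, and 40 had none (63.5%, against 63.0% of expressed genes). Median gene length was 1200 bases for the selected genes and 1395 bases for the expressed genes. Of 68 tested genes next to a selected gene on the chromosome, 10 rose (14.7%) and 3 fell (4.41%), beside 10% and 13% of all tested genes. Only 6 rose without mtch-1(RNAi) replicate 4, EV replicate 1 or EV replicate 4, and 1 fell without mtch-1(RNAi) replicate 4. C54G4.7 lies directly after rskn-2 on the same strand, shares 81 exonic bases with it, and had 1318, 1184, 989 and 1150 in mtch-1(RNAi), against 684, 747, 744 and 717 in EV. It rose with a log2 fold change of 0.69 (SE 0.08, edgeR adjusted p = 0.000139), beside the 1.66 of rskn-2. C14C6.5, next to nhr-132, went the other way (log2 fold change -1.71, SE 0.20, edgeR adjusted p = 0.000128).

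Overlap with another annotated gene limited a few of the values. Exons of 20 selected genes shared bases with another gene, and the overlap covered at least 10% of the exonic length in 4 of them. Besides sosi-1 these were Y65B4BL.1 with Y65B4BM.3 (73.8%, same strand), Y48G1BM.6 with Y48G1BM.10 (29.9%, same strand) and gpa-1 with T19C4.5 (18.9%, opposite strand). T19C4.5 averaged 30.004 in mtch-1(RNAi) and 36.8 in EV. Whether reads were counted by strand is not given in the sources used here, so reads from overlapping exons cannot be told apart.

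Other genes sharing a name stem with a selected gene were pooled, except the 169 nhr genes described above, whose stem had over 40 tested relatives. Of the 215 pooled genes, 26 rose (12.1%) and 13 fell (6.05%), against 10% and 13% over all tested genes. The share that rose was near that of all genes. The median log2 fold change of the pooled genes was 0.04, beside 0.01 over all tested genes. Counted among those that rose are pud-3 and pud-4, which had met the value criteria and were left out by name. With the replicate number as a block, 22 of the relatives fell, and without EV replicate 4 it was 8. Among 18 other genes of the mitochondrial stress response, 7 rose (38.9%) and 2 fell (11.1%), with a median log2 fold change of 0.25. timm-23, part of the inner membrane import channel, rose (log2 fold change 0.75, SE 0.06, edgeR adjusted p = 8.82e-06), as did atfs-1 (0.59, SE 0.05, edgeR adjusted p = 1.34e-05). Chaperones moved in both directions. hsp-6 rose (0.41, SE 0.05, edgeR adjusted p = 0.000298), while the matrix chaperonin hsp-60 fell (-0.58, SE 0.08, edgeR adjusted p = 0.00054). Among 16 heat shock and chaperone genes 7 rose (43.75%) and 2 fell (12.5%), with hsp-16.41 at 347, 168, 115 and 111 in mtch-1(RNAi), against 22.8, 14.995, 8.95 and 5.54 in EV. This list includes hsp-70, which had met the value criteria and was left out by name, so its rise followed from the rule. Of 13 genes of the intracellular pathogen response, edgeR called 0 higher at an adjusted p under 0.05, 1 higher at an unadjusted p under 0.05, and 2 lower at the adjusted threshold. DESeq2 and limma-voom gave the same counts of 0 and 2, and without EV replicate 1 the count called higher was 1. drh-1, a viral RNA sensor, was 1 of those 2 (log2 fold change -0.31, SE 0.06, edgeR adjusted p = 0.00215).

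**Figure D5:**
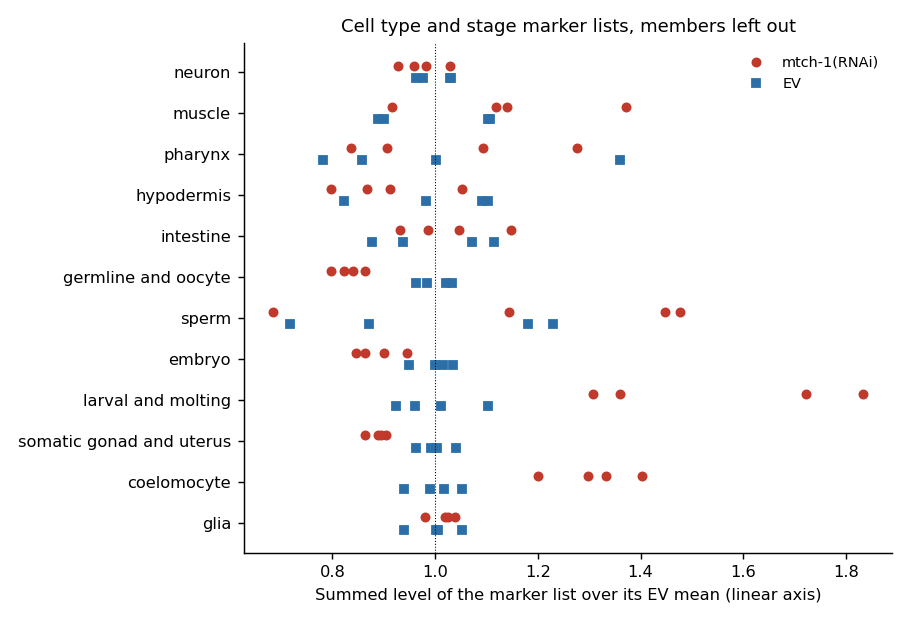
Summed normalised counts of each cell type marker list relative to the mean of the EV samples, 1 point per sample, mtch-1(RNAi) above EV in each row. The summed larval and molting markers and coelomocyte markers lie higher in all 4 mtch-1(RNAi) samples than in any EV sample. The sums of germline and oocyte, embryo and somatic gonad markers lie lower. Abundant genes weigh most in a sum. dex-1, fln-1 and pal-1 make up a large part of the coelomocyte, somatic gonad and embryo sums, so those rows need not hold for the whole list.

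Among the remaining marker lists, coelomocyte markers summed to 320 to 374 in mtch-1(RNAi) and 250.3 to 280.4 in EV. Somatic gonad and uterus markers summed to 14379 to 15058 in mtch-1(RNAi) and 16016 to 17327 in EV. Both sums were apart between the groups, in opposite directions, and each gave an adjusted exact permutation p of 0.0686 (smallest possible raw p). A single abundant gene made up a large part of each sum. dex-1 averaged 243 in mtch-1(RNAi) and 175 in EV, and fln-1 averaged 7079 in mtch-1(RNAi) and 8662 in EV. The lists without these genes were not tested, so each p holds for the sum and not for its list as a whole. By single genes, edgeR called 1 of 4 coelomocyte markers higher, and of 9 somatic gonad markers 1 higher and 2 lower. The coelomocyte call and the higher gonad call were lost in 6 of the 8 fits that left out 1 library, all but those without mtch-1(RNAi) replicate 3 or EV replicate 1, and the gonad markers called lower were 1 in the same 6 fits. For intestine markers 1 of 12 was called higher (8.33%), and 0 without mtch-1(RNAi) replicate 2 or 4 or EV replicate 3 or 4. For glia 2 of 5 were called higher (kcc-3 and ptr-10), for embryo 1 higher and 2 lower of 10 (1 lower without mtch-1(RNAi) replicate 1 or EV replicate 3), and for pharynx 1 of 8 lower.

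Just inside the threshold of 2 were atf-2, egl-46 and lido-18, with ratios of 2.00, 2.01 and 2.01. Just outside it were Y49E10.30, with means of 60.9 in mtch-1(RNAi) and 30.5 in EV, F55G1.7, with 340.3 in mtch-1(RNAi) and 170.6 in EV, and K04F10.2, with 42.2 in mtch-1(RNAi) and 21.2 in EV. In those genes too every mtch-1(RNAi) value lay above every EV value. Genes with a higher ratio also stayed out where the groups overlapped, as in Y41C4A.11, whose ratio was 3.92 with a lowest mtch-1(RNAi) value of 46.8 and a highest EV value of 57.1.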

How the data were processed

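RNA was sequenced from 8 samples, 4 of mtch-1(RNAi) and 4 of EV worms. Per the submitters' processing notes, the authors used HISAT2 2.0.5, featureCounts 1.5.0-p3 and DESeq2 with the WBcel235 build; strand and counting settings are not given there. The deposited table holds raw read counts per gene, the authors' normalised signal (each count over the size factor of its library), FPKM values, gene lengths and domain names. The authors' log2 fold changes and p-values are also in the deposited table and were not used for any value reported. Every per-sample column was mapped by name, leaving 0 unmapped. Depth was 18710833 to 23608608 counts per sample.

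The selected genes, the lists of relatives and markers and the tests were chosen with earlier results of these data known. Levels and ratios come from the normalised signal. Log2 fold changes, standard errors and adjusted p-values come from edgeR 4.0.16 (R 4.3.3) on the deposited counts, with filterByExpr, TMM scaling, the quasi-likelihood test and Benjamini-Hochberg adjustment over 13252 genes. DESeq2 1.42.0 and limma 3.58.1 were alternatives. The edgeR step was tested on simulated data. Sample sums of marker lists were compared by an exact permutation test. Gene symbols came from Ensembl for 20593 of 20871 genes, and neighbours and overlaps from the same annotation; 60 of the 63 selected genes matched it. Coordinates are those of the deposited table and need not cover the whole annotated gene: in 29 selected genes an end lay over 100 bases from the Ensembl annotation, which was used for the span of mtch-1.

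The edgeR values given carry no block for the replicate number, and the permutation tests of marker sums were unpaired. A fit with the number as a block was an alternative. Same-numbered samples deviated together, with correlations of 0.331, 0.195, 0.234 and 0.177, all over the limit of 0.1 fixed for this check, while the highest correlation between differently numbered samples was 0.143.

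Named genes were the 31 with a symbol, the 10 sequence-named genes with the largest ratio and the 10 with the highest EV mean, the 3 genes on each side of the fold threshold, up to 3 called genes per list and direction, and the 5 pairs with the highest correlation. atf-4, K01A11.3 and Y41C4A.11 were added after their values were seen.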

Additional observations from a re-analysis of the deposited data

Results flagged for a closer look

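In 9 of 126 groups examined (63 selected genes in 2 groups each) 1 sample stood apart from the other 3 by Dixon's criterion, which flags about 1 in 20 groups by chance. In mtch-1(RNAi) the sample apart was replicate 1 of asns-2 (3447, the others 1653 to 1863), replicate 1 of fip-6 (85.6, the others 35.1 to 40.9), replicate 4 of Y53G8AL.1 (54.1, the others 43.9 to 45.6), and, as a low sample, replicate 3 of nhr-132 (169, the others 207 to 213). In EV it was replicate 3 of gba-2 (68.3, the others 24.9 to 32.3), replicate 1 of osg-1 (90.03, the others 55.4 to 60.4), replicate 3 of K07A1.13 (77.2, the others 56.9 to 58.8), replicate 4 of F59H6.2 (85.8, the others 51.5 to 55.9) and replicate 3 of C50B6.7 (276, the others 188 to 202). All values are normalised counts.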

How the results depend on the processing

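The number of selected genes, 63, followed the cut-offs of the rule. They were 0.302% of the genes in the table. The share was 0.57% with an EV mean of at least 10, 0.153% (32 genes) with at least 50, 1.56% (325) at a ratio of at least 1.5, 0.0479% (10) at a ratio of at least 3, and 0.671% (140) on raw counts. It was 0.398% (83) with overlapping groups allowed, 0.311% (65) on TMM-scaled counts and 0.24% to 0.436% (50 to 91) without 1 library. All 63 kept a fold change above 0 under the 12 alternatives of the fit, with a lowest log2 value of 0.68. The rule had placed every mtch-1(RNAi) value above every EV value in these same samples, so the kept sign carries no information. Only pud-1.1 without EV replicate 2 moved beyond its SD.

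The fit with the replicate number as a block, which pairs the samples, called 1983 genes higher and 2264 lower over the whole table. Without the block these counts were 1325 and 1728. Larger counts for a list under this fit thus came with larger counts over all genes. It called 35 cytochrome P450 and UDP-glycosyltransferase genes higher and 9 lower, 22 relatives lower, 6 neuropeptide genes higher and 2 lower, and 27 nuclear hormone receptors higher.

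Without 1 library, the counts ran as follows. Genes called over the whole table were 1011 to 1261 higher and 1219 to 1632 lower. Chromosome neighbours were 6 to 10 higher and 1 to 3 lower, relatives 19 to 23 higher and 8 to 15 lower, and pathogen response genes 0 to 1 higher. Neuropeptide genes were 1 to 3 higher and 0 to 2 lower, and nuclear hormone receptors 7 to 16 higher and 2 to 4 lower. The cause of these shifts was not tested.

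The planned count of promoter motifs was not run. Low counts limit the precision of the 31 selected genes with an EV mean under 50.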
